A study of Mus musculus with 22 samples.

Results

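Immunoglobulin variable segments are the germline gene pieces from which the antigen-binding ends of antibodies are built, and 113 of the 46603 rows of the deposited mouse count table are described here. A row was taken when its symbol began with Ighv (heavy chain), Igkv (kappa light chain) or Iglv (lambda light chain) and it held at least 10 counts in at least 3 of the 22 libraries. This kept 50 of 185 Ighv rows, 60 of 159 Igkv rows and 3 of 3 Iglv rows, out of 347 variable segment rows in all, of which 127 held no count in any library. All 113 are annotated as variable genes in GENCODE M21. The other 234 rows, of which 128 are annotated as pseudogenes, held between 1.14% and 6.21% of a library's variable segment counts. The rule used the counts of all libraries together and no group label. It was met through the libraries of 2 groups for 7 segments, of all 6 groups for 42 segments and of no single group alone. A segment that reached the threshold only where it was abundant had to differ from the other groups, and 46 of the segments had no Control library at 10 counts, so counts and medians over the segments below are descriptions. At the edge of the rule, 13 segments reached 10 counts in exactly 3 libraries and held 65.0 to 326 counts in total (median 115), while 9 rows outside it reached 10 counts in exactly 2 libraries and held 39.7 to 200 counts (median 62).

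A B cell joins a heavy chain V segment with a D and a J segment, and a light chain V segment with a J segment, and all its descendants carry the same choice. Plasma cells of the gut lamina propria, which secrete mostly IgA, hold very large amounts of immunoglobulin mRNA. In a tissue extract the variable segment reads can therefore come largely from such cells, and a few expanded clones can supply a large share of them. In bulk tissue, fewer antibody-producing cells and less immunoglobulin mRNA per cell cannot be told apart, and reads of 1 segment can come from 1 clone or from many.

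The libraries were made from intestinal tissue of male wild-type C57BL/6 mice (an inbred strain), 7 weeks old at the start. The mice were kept for 7 weeks on a diet with 8% fibre by weight. In every group, Control included, carbohydrate supplied 45% of the calories, fat 35% and protein 20%. The gut segment is not given in the sources used here. The groups were Pectin_PFOS (pectin, a fermentable plant polysaccharide, with PFOS, n = 4), Pectin (n = 4), Inulin_PFOS (inulin, a fermentable fructan, with PFOS, n = 3), Inulin (n = 3), PFOS (cellulose, a poorly fermented fibre, with PFOS, n = 4) and Control (cellulose alone, n = 4). PFOS is perfluorooctanesulfonic acid, a persistent fluorinated surfactant, which exposed mice drank with their water at a daily dose of 3 µg per kg of body weight. The treatment tag names PFOS for all samples, controls included, and the titles' group names were used to tell who was exposed. Biological replicates are numbered in the titles, but whether each came from its own animal is not spelled out, and p-values measure the spread between these libraries.

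Library totals ran from 17613322 to 20261370 counts, so depth differed little. The 8 enterocyte markers examined summed to at least 9002 CPM (counts per 1000000 of the library) in every library. Sums over marker lists are CPM after trimmed-mean (TMM) scaling, here and below. The segments took 360 to 16516 counts per library. Pectin_PFOS 1 had the lowest number of genes at 10 counts, 12919 against up to 14926, and the lowest scaling factor, 0.749, so the main levels and counts of calls are also given without it. The 6 markers of B cell precursors, which rearrange V segments, summed to 0.369 to 11.3 CPM. Rag1 and Igll1 were at 0 in 21 of 22 libraries, Rag2 in 12, Dntt in 10, Vpreb1 in 3 and Vpreb3 in 1. Vpreb3 reached 10.8 CPM and the others at most 0.372 CPM each.

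The germline 3′ ends of 7 segments that the results turn on are printed because this end of a segment lies next to the joint in a rearranged transcript. They are the last 120 coding bases on GRCm38, read 5′ to 3′ on the coding strand, and the capitals mark the last in-frame cysteine codon, after which the junctional region begins. Ighv7-1 (chr12:113896408-113896946, minus strand), Ighv1-5 (chr12:114513330-114513807, minus strand) and Igkv2-112 (chr6:68219981-68220706, plus strand) carried the diet contrasts. Ighv5-16 (chr12:113838526-113839010, minus strand) and Igkv2-137 (chr6:67555497-67556216, plus strand) each dominated 1 library. Igkv1-110 (chr6:68270485-68271267, plus strand) led the kappa chain most often, and Igkv1-117 (chr6:68121046-68121827, plus strand) is its close copy.
Ighv7-1: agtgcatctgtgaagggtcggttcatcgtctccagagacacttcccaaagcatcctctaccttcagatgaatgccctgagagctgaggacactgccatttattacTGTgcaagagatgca
Ighv1-5: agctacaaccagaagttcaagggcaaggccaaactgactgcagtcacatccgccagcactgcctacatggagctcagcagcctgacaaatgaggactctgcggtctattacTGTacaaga
Ighv5-16: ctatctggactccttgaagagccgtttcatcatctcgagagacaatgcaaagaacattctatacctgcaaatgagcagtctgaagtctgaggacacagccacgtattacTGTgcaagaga
Igkv2-112: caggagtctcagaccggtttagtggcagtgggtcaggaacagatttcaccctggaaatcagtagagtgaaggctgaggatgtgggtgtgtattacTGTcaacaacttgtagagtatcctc
Igkv2-137: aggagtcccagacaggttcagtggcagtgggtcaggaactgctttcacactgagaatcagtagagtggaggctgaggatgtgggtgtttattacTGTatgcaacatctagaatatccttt
Igkv1-110: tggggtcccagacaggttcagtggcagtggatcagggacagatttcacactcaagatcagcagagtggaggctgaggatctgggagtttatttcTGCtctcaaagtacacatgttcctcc
Igkv1-117: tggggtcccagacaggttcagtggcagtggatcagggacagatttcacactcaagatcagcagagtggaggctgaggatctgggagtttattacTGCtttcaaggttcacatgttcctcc
Ighv7-1, Ighv5-16, Igkv2-112 and Igkv2-137 share no stretch of 50 coding bases with any other variable segment row, and 1.32% of the 50-base stretches of Ighv1-5 recur elsewhere. Igkv1-110 and Igkv1-117 differ at 10 of 359 aligned positions (97.2% identity) and their deposited counts hold fractions, so the division between them is uncertain. Of the segments, 17 share no such stretch with another row and 18 share more than 50% of them. Ighv1-72 shares 91.4% with other rows, Igkv4-59 72.9%, Igkv4-74 52.4% and Ighv1-26 49.0%, and their counts are uncertain too.

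The mean level of variable segment RNA was highest in Pectin and lowest in PFOS. In CPM of the library total, the segments together gave 48.4, 348, 193 and 242 in Pectin_PFOS, 288, 249, 329 and 885 in Pectin, 312, 166 and 168 in Inulin_PFOS, 20.1, 93.6 and 238 in Inulin, 44.4, 41.3, 43.7 and 104 in PFOS, and 76.6, 52.7, 109 and 59.7 in Control. Every Pectin library was above every Control library, every Inulin_PFOS library was above every PFOS library, and the other pairs of groups compared below overlapped. Group means were 208 ± 124 in Pectin_PFOS, 438 ± 300 in Pectin, 215 ± 83.4 in Inulin_PFOS, 117 ± 111 in Inulin, 58.4 ± 30.7 in PFOS and 74.5 ± 25.2 in Control (SD). Without Pectin 4 the Pectin mean was 288, without Pectin_PFOS 1 the Pectin_PFOS mean was 261, and the Inulin mean was 56.8 without Inulin 3 and 166 without Inulin 1. No test was made of these sums, since they add up segments chosen by their counts.

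**Figure D1:**
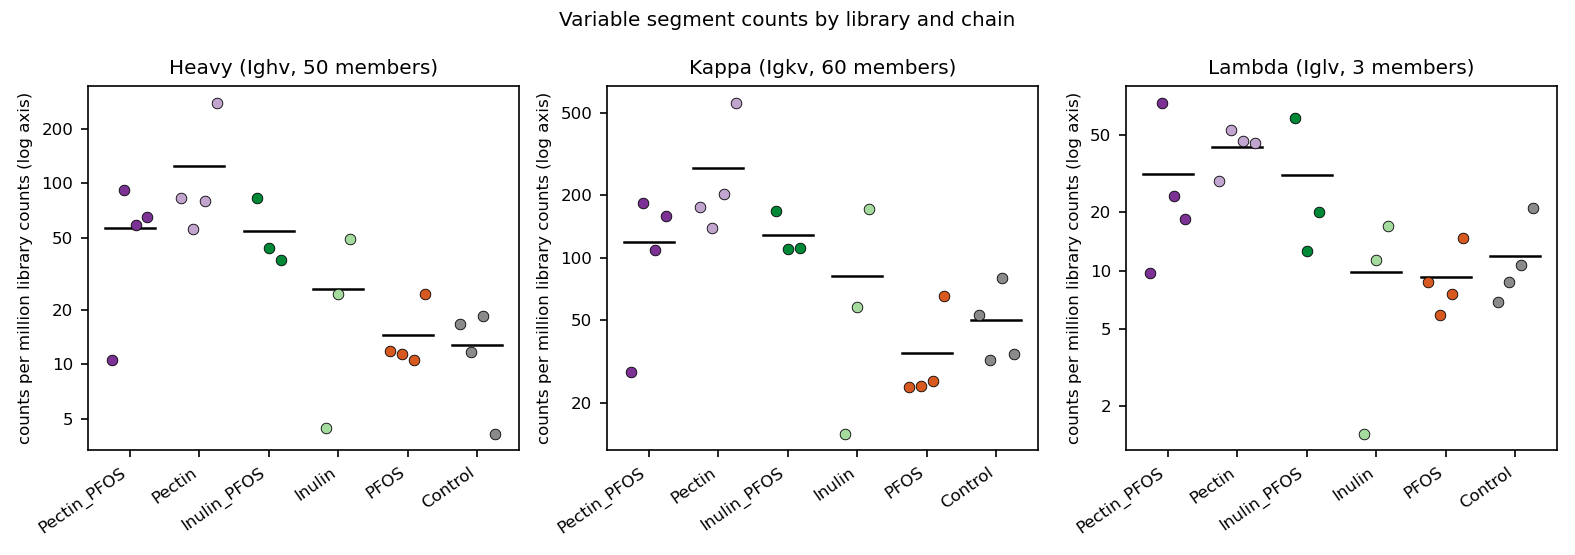
CPM of the library total (log axis) summed over the Ighv, Igkv and Iglv segments, 1 dot per library and a black line at each group mean. The 4 Pectin libraries lie above the 4 Control libraries for all 3 chains, while Inulin spans the widest range, from 20.1 to 238 for the 3 chains together.

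All 3 chains had their highest mean in Pectin, although single libraries carried much of several means. Heavy chain segments averaged 56.6 ± 33.8 CPM of the library total in Pectin_PFOS, 124 ± 104 in Pectin, 54.8 ± 24.8 in Inulin_PFOS, 26.1 ± 22.4 in Inulin, 14.6 ± 6.66 in PFOS and 12.8 ± 6.40 in Control. Kappa segments averaged 120 ± 68.4 in Pectin_PFOS, 270 ± 196 in Pectin, 129 ± 33 in Inulin_PFOS, 81.3 ± 81.6 in Inulin, 34.6 ± 20.4 in PFOS and 49.9 ± 22.1 in Control. For lambda the means were 31.5 ± 28.5 in Pectin_PFOS, 43.5 ± 10.1 in Pectin, 31.2 ± 26.1 in Inulin_PFOS, 9.89 ± 7.81 in Inulin, 9.24 ± 3.83 in PFOS and 11.8 ± 6.30 in Control. Without Pectin_PFOS 1 the Pectin_PFOS means were 72.0, 150 and 38.7 for heavy, kappa and lambda. Without Pectin 4 the Pectin means were 73.0 for heavy and 173 for kappa, and without Inulin 3 the Inulin means were 14.5, 36 and 6.39 for the 3 chains. The lambda mean was 17.5 in Pectin_PFOS without its library 2 and 16.3 in Inulin_PFOS without its library 1. Lambda segments supplied 7.52% to 37.9% of light chain segment counts, with group means from 11.5% in Inulin to 22% in PFOS. The Inulin libraries (8.93% to 16.4%) lay below the PFOS libraries (18.4% to 26.8%), and the means differed by less than the spread in Control (20.6% ± 12.4). Iglv1 held on average 86.7% of the lambda counts. Iglv2 led in PFOS 2 with 60%, held 32.7% in Pectin 2 and 27.7% in Pectin_PFOS 4, and held at most 18.0% in the other libraries.

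Segment counts went with those of the constant regions to which the segments are spliced. Kappa segments gave 23.4 to 64.4 counts per 100 counts of Igkc, the kappa constant region, with group means of 38.6 ± 8.67 in Pectin_PFOS, 36.2 ± 10.3 in Pectin, 34.2 ± 8.05 in Inulin_PFOS, 47.7 ± 10.3 in Inulin, 33.9 ± 11.1 in PFOS and 47.5 ± 12.0 in Control. Heavy segments gave 3.48 to 14.5 counts per 100 counts of Igha, the IgA heavy chain. That ratio averaged 12.1 ± 2.32 in Inulin and between 5.97 and 7.77 in the other groups. Ighm and Ighd, the IgM and IgD heavy chains of naive B cells, were at 218 and 80.8 CPM of the library total in Inulin 3 and at 269 and 130 in Control 3, whereas Ighd was at 0.613 to 40.5 in the other libraries. After TMM scaling, the 13 follicular B cell markers summed to 41.1 to 681 CPM in Inulin and 6.80 to 780 CPM in Control, against 18.8 to 56.4 in Pectin_PFOS, 30.4 to 216 in Pectin, 46.4 to 70.4 in Inulin_PFOS and 3.74 to 197 in PFOS. The part of these cells in the segment counts was not tested.

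The ranges of the effective number of segments overlapped between all 6 groups, while other measures of diversity set Inulin above some groups. The effective number is the number of equally abundant segments that would give the same Shannon entropy. For the heavy chain it was 22.1, 26.7, 32.0 and 25.2 in Pectin_PFOS, 18.7, 23.7, 26.7 and 16.5 in Pectin, 28.7, 25.2 and 25.9 in Inulin_PFOS, 24.1, 26.5 and 42.4 in Inulin, 26.2, 23.2, 25.2 and 26.9 in PFOS, and 27.0, 9.46, 37.0 and 26.6 in Control. For the kappa chain it was 17.5, 26.6, 28.5 and 9.84 in Pectin_PFOS, 19.6, 31.0, 30.7 and 16.2 in Pectin, 25.8, 22 and 27.2 in Inulin_PFOS, 25.3, 31.2 and 36.1 in Inulin, 22.3, 27.7, 24.8 and 17.9 in PFOS, and 31.4, 7.55, 40.1 and 29.3 in Control. The Control libraries spanned the widest range for both chains. Mean effective numbers ran from 21.4 ± 4.64 in Pectin to 31.0 ± 9.91 in Inulin for the heavy chain and from 20.6 ± 8.63 in Pectin_PFOS to 30.9 ± 5.41 in Inulin for kappa. Thinned to 79 counts, the smallest heavy chain total, the number of heavy segments seen averaged 28.4 ± 2.12 in Pectin_PFOS, 25.0 ± 2.77 in Pectin, 28.6 ± 0.039 in Inulin_PFOS, 32.3 ± 3.88 in Inulin, 27.8 ± 1.56 in PFOS and 28.5 ± 7.60 in Control. On this number the Inulin libraries (29.3 to 36.7) lay above those of Inulin_PFOS (28.6 to 28.7), which lay above those of Pectin (22.6 to 28.6) by less than 1 segment. Over all heavy variable rows the effective number was 33.2 to 56.9 in Inulin, above Pectin (19.8 to 32.9) and PFOS (27.8 to 32.1). The inverse Simpson number of kappa, which weights abundant segments more, was 10.3 to 15.6 in Inulin_PFOS, below the 17.8 to 24.1 in Inulin. No test was made of these measures.

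**Figure D2:**
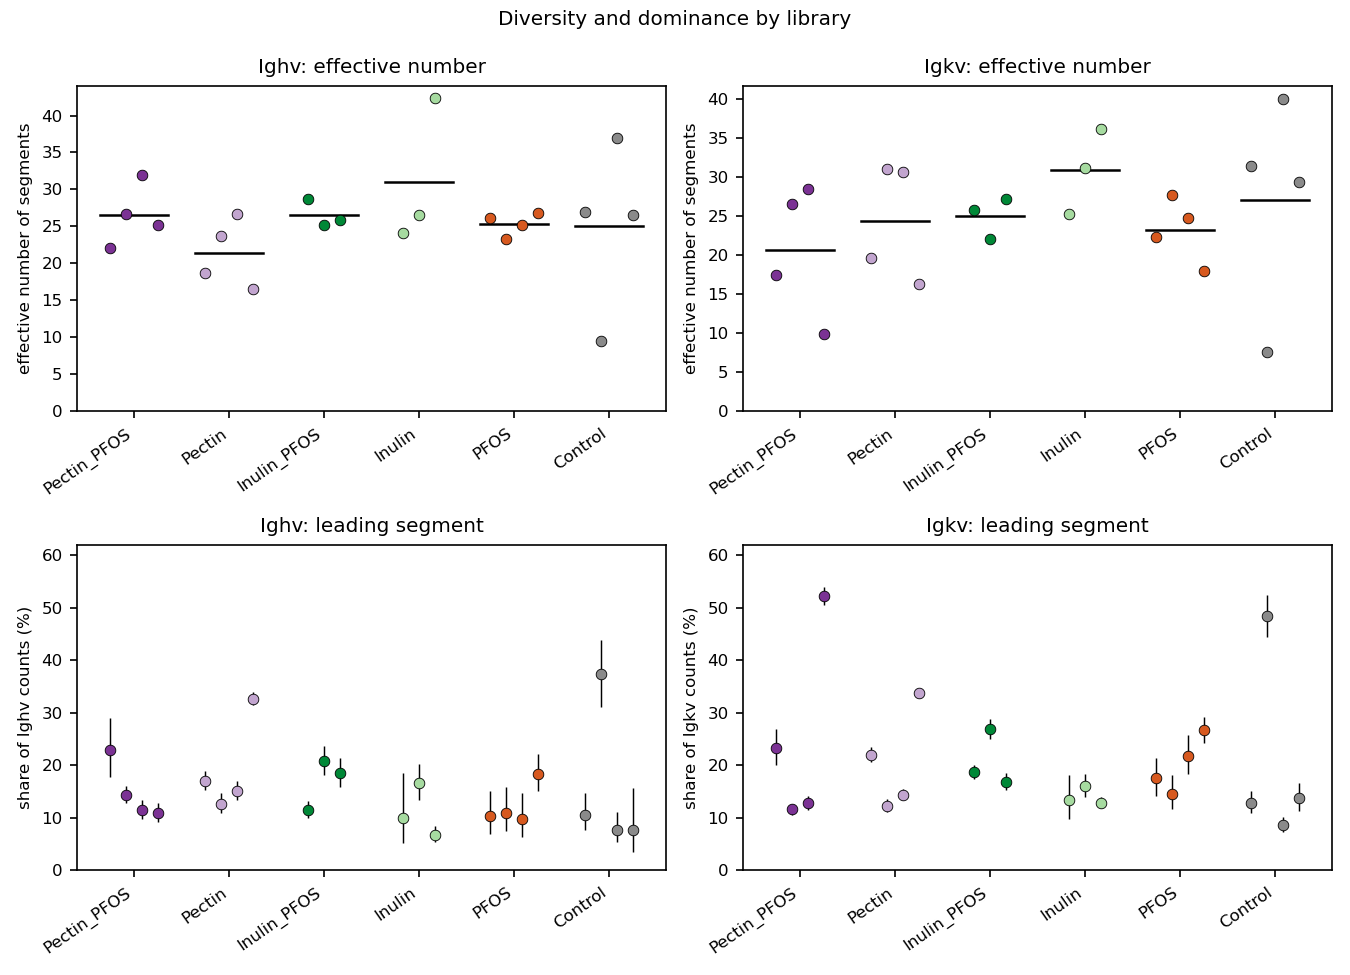
Effective number of segments (top, lines at group means) and share of the leading segment in percent (bottom, with Wilson 95% intervals) for Ighv and Igkv, 1 dot per library. In these 4 panels the groups overlap except that the leading kappa share of each Inulin_PFOS library (16.8% to 26.8%) is above that of each Inulin library (12.8% to 16.1%). Control 2 has the lowest effective numbers, 9.46 for Ighv and 7.55 for Igkv, and Pectin_PFOS 4 the highest leading kappa share, 52.2%.

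The highest shares of 1 segment, in Pectin_PFOS 4, Pectin 4 and Control 2, were each reached in a single library. Ighv7-1 and Igkv2-112, at lower shares than these, led several libraries, as given below. The leading heavy segment held 6.72% to 37.3% of heavy segment counts, and the leading kappa segment 8.60% to 52.2% of kappa counts. In Pectin_PFOS 4, Igkv1-110 took 1583 counts, 52.2% of kappa (Wilson 95% interval 50.5 to 54.0), and the next segment, Igkv2-112, 7.76%. In Pectin 4, Ighv5-16 took 1700 counts, 32.7% of the heavy chain (31.4 to 34.0), and Igkv10-96 took 33.7% of kappa (32.8 to 34.6). Ighv5-16 had at most 112 counts in any other library, in Pectin_PFOS 2. In Control 2, Ighv1-72 took 37.3% of the heavy chain on 81 counts (31.2 to 43.9) and Igkv2-137 took 48.5% of kappa on 288 counts (44.5 to 52.5), and the 5 leading segments held 71.0% and 80.3% of the 2 chains. In PFOS 4, Ighv1-69, which stood at 0 to 2 counts in the other 3 PFOS libraries, led with 85 counts (18.4%), and Igkv1-117 led kappa with 26.6%. Reads are not independent molecules, so these intervals cover counting error only. Leading heavy shares averaged 14.9% ± 5.53 in Pectin_PFOS, 19.4% ± 9.07 in Pectin, 16.9% ± 4.83 in Inulin_PFOS, 11.1% ± 5.03 in Inulin, 12.3% ± 4.06 in PFOS and 15.8% ± 14.4 in Control, and the groups overlapped. The leading kappa share was 16.8% to 26.8% in Inulin_PFOS, above the 12.8% to 16.1% in Inulin, and the other pairs of groups overlapped. With TPM in place of counts these 2 overlapped as well, at 10.8% to 29.0% in Inulin_PFOS and 11.1% to 17.6% in Inulin. The Control mean of the heavy share was 8.62% without Control 2, and the leading kappa share there was 20.9% ± 18.5 with it and 11.7% without it.

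Counting a tie, 13 heavy and 8 kappa segments led a library. Ighv7-1, known as the heavy segment of the T15 antibodies to phosphorylcholine, led 6 libraries. These were Pectin_PFOS 1 (49 counts, 22.8%) and 3 (132, 11.5%), Pectin 1 (279, 17%), 2 (144, 12.7%) and 3 (231, 15.0%), and Inulin 2 (75, 16.6%). No PFOS or Control library was among them, and there it had at most 1 count. Ighv1-72, known as V186.2 of antibodies to the hapten nitrophenyl, led 4 libraries, Control 2 and 3, Inulin 3 and Inulin_PFOS 3. Of the kappa segments, Igkv1-110 led 9 libraries from 4 of the 6 groups, and Igkv2-112 led 5, namely Pectin 1, 2 and 3, Inulin_PFOS 2 and Inulin 2. Control 4 shows the limit of the depth, since its 79 heavy chain counts put Ighv3-6 and Ighv1-26 level at 6 counts each.

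**Figure D3:**
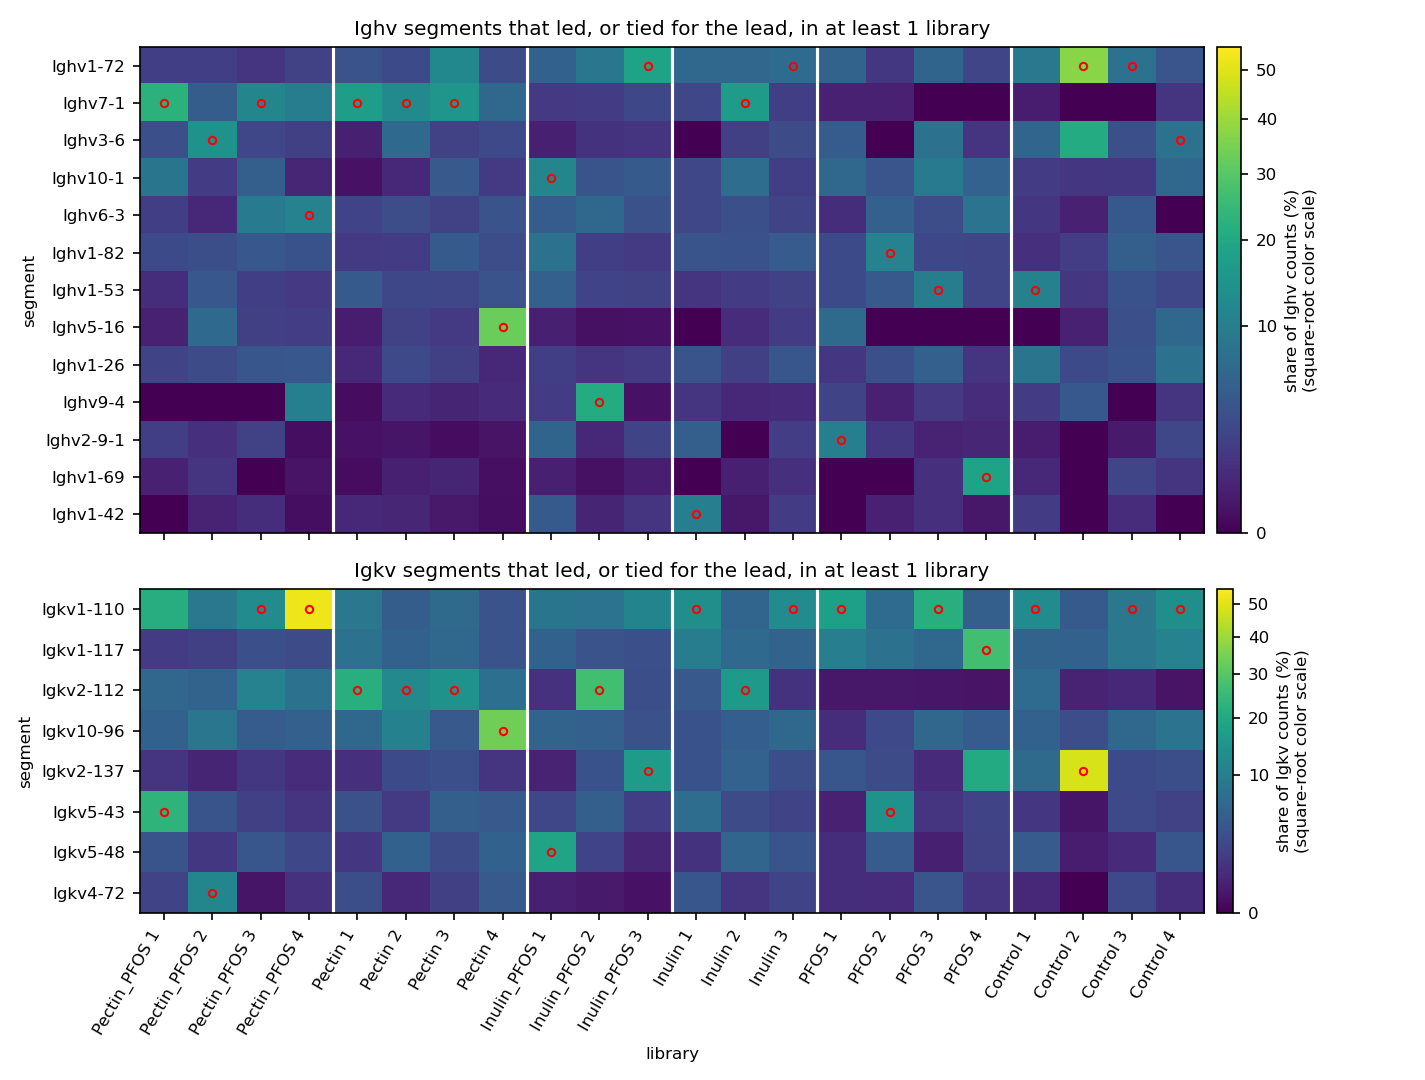
Share of Ighv (13 rows) and Igkv counts (8 rows), in percent on a square-root colour scale, for every segment that led or tied in a library, with libraries in columns by group and a red circle at each library's leader. Ighv7-1 and Igkv2-112 are circled in pectin and inulin columns, and the brightest cells (Igkv1-110 in Pectin_PFOS 4, Igkv2-137 in Control 2) lie in single columns.

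By mean share with each library weighted equally, Igkv1-110 was the most used kappa segment (12.2%, range 3.56% to 52.2%), ahead of Igkv1-117 (6.72%), Igkv2-112 (6.72%), Igkv10-96 (6.53%), Igkv2-137 (6.13%), Igkv5-43 (4.14%), Igkv5-48 (3.47%), Igkv4-59 (3.32%), Igkv8-30 (3.19%) and Igkv16-104 (2.18%). In the heavy chain Ighv1-72 (6.92%, range 1.21% to 37.3%) was followed by Ighv7-1 (5.87%), Ighv1-64 (4.37%), Ighv3-6 (4.21%), Ighv10-1 (4.04%), Ighv1-5 (3.97%), Ighv6-3 (3.60%), Ighv1-82 (3.54%), Ighv1-53 (3.34%) and Ighv5-17 (3.07%). Ighv7-1 averaged 12.2% of heavy counts in Pectin_PFOS and 12.8% in Pectin, 1.95% in Inulin_PFOS and 7.00% in Inulin, but 0.24% in PFOS and 0.40% in Control. Igkv2-112 averaged 7.56% of kappa in Pectin_PFOS, 14.0% in Pectin, 10.4% in Inulin_PFOS, 7.19% in Inulin, 0.21% in PFOS and 2.02% in Control. Single libraries carried several of these means. Without Inulin_PFOS 2, which held 26.8%, the Igkv2-112 mean in Inulin_PFOS was 2.16%, near that of Control, and without Control 1 the Control mean was 0.45%. Without Inulin 2 the Inulin means were 2.20% for Ighv7-1 and 2.75% for Igkv2-112, and without Pectin_PFOS 1 the Ighv7-1 mean in Pectin_PFOS was 8.61%. Igkv16-104 stood out in Inulin_PFOS alone by mean share, at 7.53% against at most 2.19% in any other group.

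At the level of families, which group segments by sequence, Ighv1 held 54.5% of heavy counts on average (28 of the segments, range 39.9% to 67.8%). Ighv7, the family of Ighv7-1, held 13.7% ± 8.02 in Pectin_PFOS, 13.8% ± 4.90 in Pectin, 4.78% ± 2.28 in Inulin_PFOS, 8.67% ± 8.59 in Inulin, 3.46% ± 1.19 in PFOS and 3.26% ± 1.77 in Control. Each Pectin library had a larger Ighv7 share than each Control library. The Ighv7 mean was 9.86% in Pectin_PFOS without its library 1 and 3.71% in Inulin without its library 2. In kappa, Igkv1 held 21.3%, Igkv2 14.5% and Igkv4 10.7% on average. Usage was also compared between libraries with the Morisita-Horn index, which is 0 for no shared segments and 1 for equal shares. For the heavy chain its mean was 0.542 among the 28 pairs of pectin-fed libraries and 0.387 among the 64 pairs of a pectin-fed with a cellulose-fed library, and for kappa 0.551 and 0.465. The ranges overlapped widely (0.273 to 0.792 and 0.145 to 0.704 for the heavy chain), and pairs share libraries, so this is a description.

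Pectin against Control asks what a fermentable fibre does without PFOS. In edgeR's quasi-likelihood test with Benjamini-Hochberg adjustment over the 15763 genes tested, 10 of the 110 segments tested were higher in Pectin and none was lower, where 1.03% of all genes were called higher and 0.958% lower. The 3 segments not tested for low counts were Ighv1-69, Ighv8-12 and Igkv6-13. Ighv7-1 had 279, 144, 231 and 328 counts in Pectin, against 1, 0, 0 and 1 in Control. The Control libraries were thus almost empty of it while each Pectin library held over 100 counts. Its total of 982 against 2 counts is a ratio of 463 after scaling for library size (counting interval 128 to 3826), and its log2 fold change was 8.60 ± 0.88 (SE, adjusted p = 6.12e-05). Ighv1-5, a heavy segment of the large Ighv1 family, had 134, 104, 83 and 106 counts in Pectin, against 1, 9, 9 and 1 in Control. Its CPM after trimmed-mean (TMM) scaling averaged 5.43 ± 1.35 in Pectin and 0.257 ± 0.239 in Control (SD, n = 4 each), a log2 fold change of 4.37 ± 0.70 (adjusted p = 0.00901).

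The kappa segment Igkv2-112 had 766, 345, 563 and 766 counts in Pectin, against 63, 3, 10 and 1 in Control, with no overlap and a log2 fold change of 5.04 ± 1.03 (adjusted p = 0.0235). Control 1 stood well above the other Control libraries. The call was lost without Control 2 or Pectin 3, with an adjusted p of up to 0.0528. Igkv4-74, a kappa segment, had 5, 41, 17 and 99 counts in Pectin, against 0, 1, 2 and 1 in Control (log2 fold change 5.05 ± 0.93, adjusted p = 0.0147). Ighv1-80 had 185, 20, 101 and 212 counts in Pectin, against 3, 1, 7 and 0 in Control (5.50 ± 1.17, adjusted p = 0.0267). Its call was lost without Control 1 or 2 or Pectin 1 or 3, with an adjusted p of up to 0.0675. Igkv10-96 had 212, 301, 168 and 3526 counts in Pectin, against 49, 18, 90 and 52 in Control, so the groups did not overlap but the mean rested on Pectin 4. The other 4 were Ighv1-76, Ighv1-59, Igkv8-30 and Igkv4-68, with log2 fold changes of 3.85 to 4.71 and adjusted p-values of 0.0404 to 0.0488. Igkv10-96, Ighv1-59, Igkv8-30 and Igkv4-68 kept their calls in at most 7 of the fits that left out 1 library. Ighv1-76 lost its call in 9 of 22 such fits, with an adjusted p of up to 0.159.

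Over the 110 segments tested, 106 had a positive and 4 a negative log2 fold change in Pectin against Control, with a median of 2.19 where the median of all genes was -0.08. The groups did not overlap for 26 segments, all higher in Pectin, where 3.95% of all genes did so in that direction. Of the lambda segments, Iglv1 (log2 fold change 1.73, adjusted p = 0.196), Iglv2 (3.36, adjusted p = 0.0742) and Iglv3 (1.90, adjusted p = 0.327) were not called. The count of 10 fell to between 3 and 6 without any 1 of Control 1, 2 or 4, PFOS 3, Inulin 2, Inulin_PFOS 2 or 3, Pectin 1, 2, 3 or 4, or Pectin_PFOS 3 or 4, and it was 16 without Pectin_PFOS 1. Calls over all genes in these fits are not set beside these counts, so they are no result about the segments in particular. Ighv7-1 and Ighv1-5 were called in each of these fits, with adjusted p-values of at most 0.00106 and 0.0231.

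**Figure D4:**
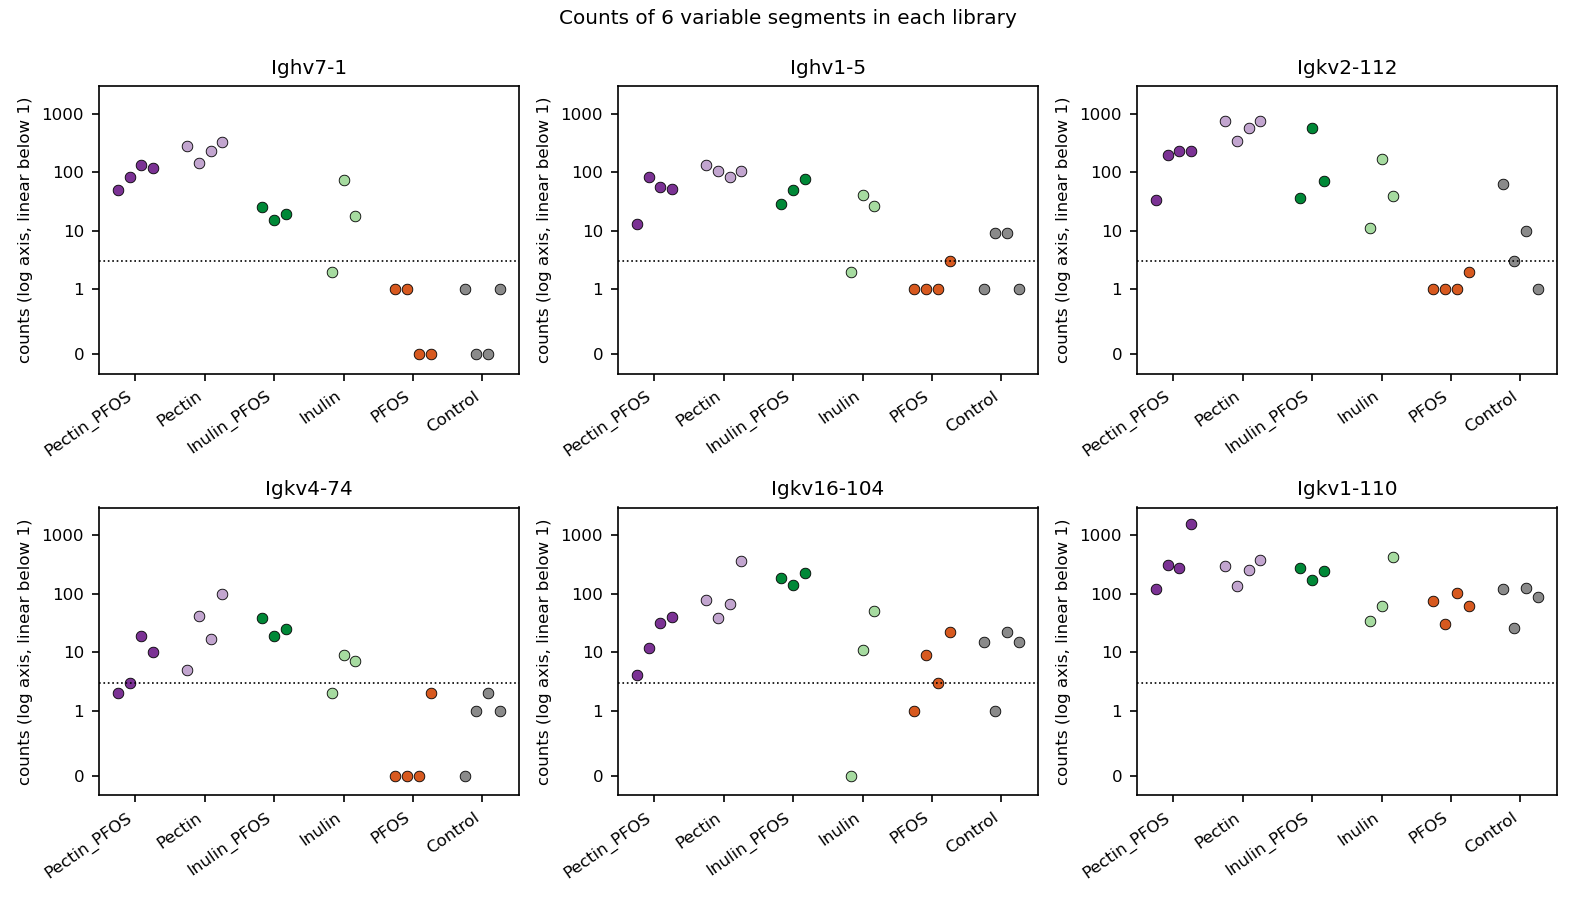
Deposited counts per library (log axis, linear below 1) of 6 segments, with groups in columns, 1 dot per library and a dotted line at the floor of 3 counts. Ighv7-1 and Igkv2-112 sit at 2 counts or fewer in every PFOS library and at 15 or more in every Pectin_PFOS, Pectin and Inulin_PFOS library; Igkv1-110 is present in all libraries.

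The constant regions and secretory genes are the other side of the same comparison. Of the 12 constant region genes tested (with Jchain, the joining chain of secreted IgA), Igha averaged 1662 ± 948 CPM in Pectin and 146 ± 28.4 CPM in Control (log2 fold change 3.51 ± 0.58, adjusted p = 0.00904), and Igkc 694 ± 295 and 107 ± 66.5 CPM (2.69 ± 0.57, adjusted p = 0.0266). Both rose and their groups did not overlap, although the Igkc call was lost without Control 1 or 2 or Pectin 1, with an adjusted p of up to 0.0592. Jchain, at 987 ± 386 CPM in Pectin and 314 ± 330 CPM in Control (149.5 without Control 4), was not called (adjusted p = 0.215). Of 12 plasma cell genes, Xbp1, a transcription factor of secretory cells (221 ± 17.2 CPM in Pectin, 133 ± 19.9 in Control, adjusted p = 0.0423), and Fkbp11, a foldase of the secretory pathway (adjusted p = 0.0437), were higher and none was lower. Of 12 genes for IgA attraction, survival and transport, Ccl28, a chemokine that draws IgA plasma cells, was higher (35.7 ± 11.5 CPM in Pectin, 14.3 ± 5.69 in Control, adjusted p = 0.0488). None of 13 follicular B cell markers was called, and all 13 had a negative log2 fold change (median -0.95). Of 7 germinal centre markers none was called, 5 were positive and their sum did not overlap, at 57.4 to 74.6 CPM in Pectin and 32.7 to 56.3 CPM in Control. Of 7 myeloid markers Itgam, an integrin subunit, was higher (adjusted p = 0.0400), with sums of 154 to 284 CPM in Pectin and 84.0 to 255 CPM in Control. The part of these cells in the segment result was not tested.

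With PFOS in both groups, Inulin_PFOS against PFOS gave 8 higher segments of 110 and none lower, where 1.84% of all genes were called higher and 0.799% lower. Ighv1-5 had 29, 50 and 77 counts in Inulin_PFOS, against 1, 1, 1 and 3 in PFOS (log2 fold change 5.22 ± 0.84, adjusted p = 0.00345). Igkv4-74 had 39, 19 and 25 counts in Inulin_PFOS, against 0, 0, 0 and 2 in PFOS, a ratio of 52.0 (counting interval 13.9 to 436, adjusted p = 0.00715). Igkv2-112 had 37, 570 and 70 counts in Inulin_PFOS, against 1, 1, 1 and 2 in PFOS (7.58 ± 1.38, adjusted p = 0.00754). Its level varied widely within Inulin_PFOS but lay under the floor of 3 counts in each PFOS library. Ighv7-1 had 25, 15 and 19 counts in Inulin_PFOS, against 1, 1, 0 and 0 in PFOS, a ratio of 37.0 (9.79 to 312, adjusted p = 0.00787). These 4 calls held with each library left out, with adjusted p-values of at most 0.0465.

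Igkv16-104, the only kappa segment of its family, had 187, 142 and 224 counts in Inulin_PFOS, against 1, 9, 3 and 22 in PFOS (log2 fold change 4.60 ± 1.03, adjusted p = 0.0225). Ighv1-72 had 86, 71.9 and 137 counts in Inulin_PFOS, against 12, 3, 11 and 11 in PFOS (3.63 ± 0.86, adjusted p = 0.0278). Igkv12-41 totalled 63 counts in Inulin_PFOS, against 3 in PFOS (ratio 26.3, counting interval 8.60 to 131, adjusted p = 0.0230), and Ighv1-42 had 72, 5 and 9 counts in Inulin_PFOS, against 0, 1, 2 and 1 in PFOS (adjusted p = 0.0293). The groups did not overlap for any of the 8. These last 4 calls were lost without PFOS 1, 2 or 3 or Inulin_PFOS 1, where the count of calls was 4, and 3 of them also without Inulin_PFOS 3. That count is given without the calls over all genes in the same fits. The adjusted p reached 0.0800 for Igkv16-104, 0.110 for Ighv1-72, 0.0994 for Igkv12-41 and 0.284 for Ighv1-42. Over the segments tested, 100 had a positive log2 fold change and 10 a negative one (median 2.11, all genes -0.01). The groups did not overlap for 39 segments, all higher in Inulin_PFOS, where 12.4% of all genes did so in that direction. Igha (999.7 ± 318 CPM in Inulin_PFOS, 207 ± 46.9 in PFOS, adjusted p = 0.0369) and Igkc (417 ± 87.7 and 84.9 ± 24.2, adjusted p = 0.0401) were higher. Each lost its call without PFOS 1, 2 or 3 or any Inulin_PFOS library, and Igkc also without Pectin 1, with adjusted p-values of up to 0.141 and 0.145. Pigr, which carries IgA across the epithelium, was higher as well (1934 ± 713 CPM in Inulin_PFOS, 284 ± 102 in PFOS, adjusted p = 0.00482), as were Ccl28 and Tnfsf13, a survival factor of plasma cells, out of the 12 genes of that list. No plasma cell gene of 12 and no follicular B cell gene of 13 was called. The plasma cell genes, 11 of 12 with a positive log2 fold change, summed to 1052 to 1357 CPM in Inulin_PFOS and 523 to 709 CPM in PFOS. Jchain makes up a large part of these sums. It was at 432 to 766 CPM of the library total in Inulin_PFOS and 75.1 to 304 in PFOS. The 7 myeloid markers summed to 151 to 255 CPM in Inulin_PFOS and 61.3 to 141 CPM in PFOS, without overlap and with none of the 6 tested called. S100a8, a neutrophil gene, was the one not tested and was at 0 in 7 libraries. The part of these cells in the segment result was not tested.

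**Figure D5:**
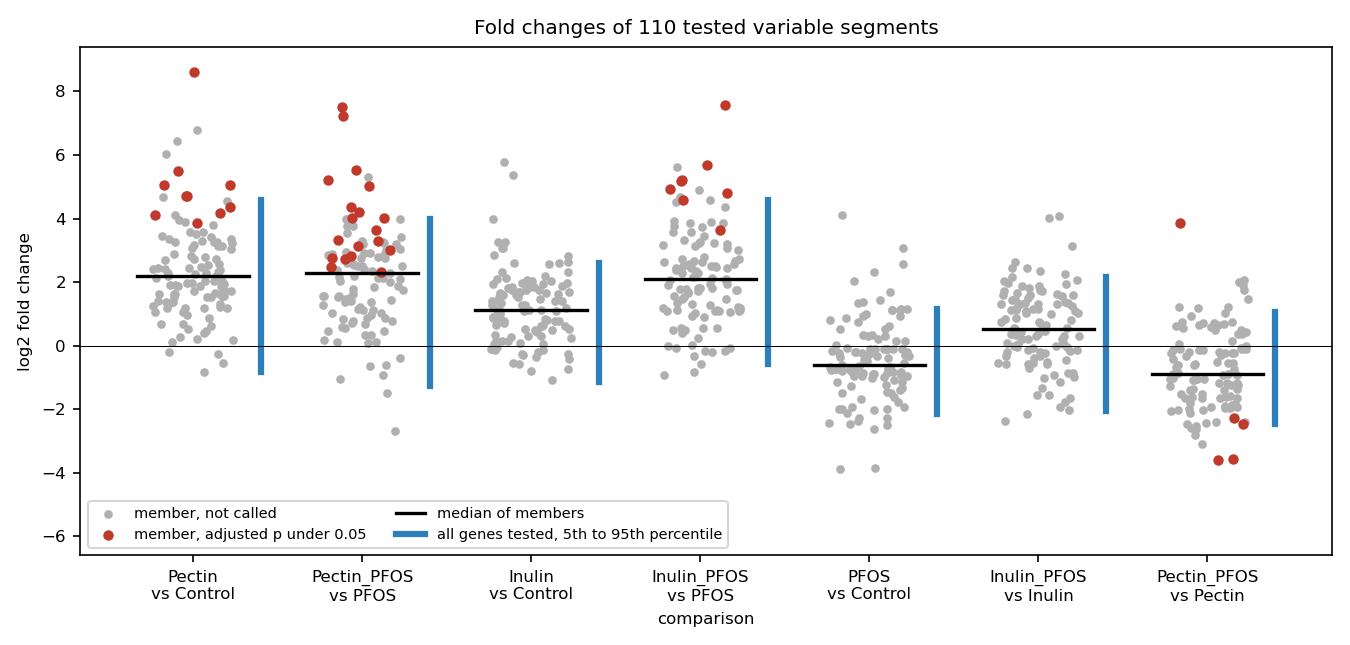
Log2 fold changes of the 110 segments tested in the 7 pairs of groups, 1 dot per segment, red where the adjusted p is under 0.05, with the median of the segments in black. The blue bars, labelled as all genes in the legend, span the 5th to 95th percentile of the segments, constant region genes and marker genes only. The medians lie at 2.19, 2.11 and 2.27 for Pectin against Control, Inulin_PFOS against PFOS and Pectin_PFOS against PFOS, and below 0 for PFOS against Control and Pectin_PFOS against Pectin.

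Pectin_PFOS against PFOS gave 19 higher segments of 110, 9 heavy, 9 kappa and Iglv1, and none lower, where 7.70% of all genes were called higher and 8.33% lower. Ighv7-1 had 49, 83, 132 and 120 counts in Pectin_PFOS, against 1, 1, 0 and 0 in PFOS, a ratio of 181 (counting interval 49.9 to 1503, log2 fold change 7.51 ± 0.88, adjusted p = 0.000156). Ighv1-5 had 13, 83, 55 and 51 counts in Pectin_PFOS, against 1, 1, 1 and 3 in PFOS (5.22 ± 0.81, adjusted p = 0.00102). Igkv2-112 had 34, 197, 232 and 235 counts in Pectin_PFOS, against 1, 1, 1 and 2 in PFOS (7.23 ± 1.35, adjusted p = 0.00326). Pectin_PFOS 1 was the lowest of its group for all 3 and still above each PFOS library. Both this comparison and the preceding one use the same 4 PFOS libraries, so their agreement is not independent.

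Igkv1-110, the leading kappa segment of 9 libraries, averaged 31.0 ± 34.7 CPM in Pectin_PFOS and 3.12 ± 1.33 CPM in PFOS (log2 fold change 3.31 ± 0.77, adjusted p = 0.00923), with no overlap although Pectin_PFOS 4 alone had 1583 of its counts and the Pectin_PFOS mean was 13.8 CPM without it. Iglv1, the main lambda segment, averaged 32.8 ± 32.0 CPM in Pectin_PFOS and 6.64 ± 4.31 CPM in PFOS (2.30 ± 0.72, adjusted p = 0.0374), a call that was lost without PFOS 1, 2 or 3 or Pectin_PFOS 2 or 3, with an adjusted p of up to 0.187. The Iglv1 mean in Pectin_PFOS was 17.1 CPM without its library 2. Ighv1-26 had 5, 51.1, 45 and 50 counts in Pectin_PFOS, against 3, 7, 10 and 6 in PFOS, and Igkv4-59 had 2, 267, 180 and 47 in Pectin_PFOS, against 10, 10, 8 and 9 in PFOS. The groups overlapped in both through Pectin_PFOS 1, although both were called (adjusted p = 0.0118 and 0.00736). Igkv4-74 (adjusted p = 0.0187), Igkv4-55 (0.0210), Ighv3-6 (0.0335) and Ighv5-9-1 (0.0351) were the other 4 of the 10 with the smallest p. Each of these 4 lost its call without PFOS 3, with an adjusted p of up to 0.0674, 0.0590, 0.279 and 0.0954 over the fits that left out 1 library. The Ighv3-6 mean rested on Pectin_PFOS 2, with 252 counts, and that of Ighv5-9-1 on Pectin_PFOS 4, with 85 counts against 1 to 3 in the rest of its group.

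Across the segments tested in Pectin_PFOS against PFOS, 103 log2 fold changes were positive and 7 negative (median 2.27, all genes -0.03). The groups did not overlap for only 10 segments, where 12.0% of all genes were higher in Pectin_PFOS without overlap, and Pectin_PFOS 1, with 48.4 CPM of variable segments, lay within the PFOS range. The following counts of called segments from other fits are given without the calls over all genes. They are therefore no result about the segments in particular. The count of calls was 7, 8 and 6 without PFOS 1, 2 and 3, 10 and 12 without Pectin_PFOS 2 and 3, and 20 without Pectin_PFOS 1. Scaled by library totals alone, 12 segments were called, all higher. That scaling moved the share of all called genes that were higher to 7.81% from 48.0% here, to 19.4% from 54.6% in Pectin_PFOS against Pectin, to 14.1% from 69.7% in Inulin_PFOS against PFOS and to 40.5% from 51.8% in Pectin against Control. Igha averaged 787 ± 403 CPM in Pectin_PFOS and 207 ± 46.9 CPM in PFOS (adjusted p = 0.0222), and Igkc 342 ± 167 and 84.9 ± 24.2 CPM (adjusted p = 0.0210). Without Pectin_PFOS 1 the Pectin_PFOS means were 982 and 424 CPM. The groups overlapped for both and both calls were lost without PFOS 1, 2 or 3, with adjusted p-values of up to 0.0569 and 0.0516. Jchain was at 187 ± 115 and 168 ± 98.3 CPM (adjusted p = 0.900). Of the 12 plasma cell genes, Jchain among them, 2 were higher and none was lower, and 10 had a positive log2 fold change (median 0.55). Their sums did not overlap, at 764 to 1023 CPM in Pectin_PFOS and 523 to 709 CPM in PFOS. Among the 13 follicular B cell markers none was called and none had a positive log2 fold change. Of the list for IgA attraction, survival and transport, Pigr, Ccl28, Ccl25 and Tnfsf13 were higher and none of the other 8 was called, with Pigr at 2908 ± 371 CPM in Pectin_PFOS and 284 ± 102 CPM in PFOS (adjusted p = 0.000631). Tissue markers moved in the same comparison. Of 8 enterocyte markers 2 were higher, and of 6 fibroblast markers 4 were lower, the fibroblast markers summing to 111 to 209 CPM in Pectin_PFOS and 352 to 502 CPM in PFOS. Their part in the segment result, and that of the plasma cell and follicular B cell lists, was not tested.

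PFOS on the same fibre was a smaller contrast for the segments. In PFOS against Control no segment was called, and none of the 15763 genes was (0%), with a smallest adjusted p of 0.822 over the segments. At an unadjusted p under 0.05 there were 6 segments (5.45%), close to the 5.34% of all genes, while DESeq2 and limma called no segment. Of the segments tested, 31 had a positive and 79 a negative log2 fold change (median -0.62, all genes -0.04). The 3 with the smallest p were Igkv12-41, with 0, 2, 1 and 0 counts in PFOS, against 22, 4, 19 and 4 in Control, Igkv4-59, with 10, 10, 8 and 9 counts in PFOS, against 44.8, 108, 45.8 and 13 in Control, and Igkv2-112, where Control 1 alone held 63 counts. The groups did not overlap for Igkv12-41 and Igkv4-59 and overlapped for Igkv2-112.

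In Inulin_PFOS against Inulin no segment was called, where 0.159% of all genes were called in either direction, 7 (6.36%) had an unadjusted p under 0.05, against 18.8% of all genes, and DESeq2 and limma called 0, where DESeq2 called 216 genes higher and 303 lower. Igkv16-104 had 187, 142 and 224 counts in Inulin_PFOS, against 0, 11 and 51 in Inulin, which did not overlap but missed the threshold (log2 fold change 3.13 ± 1.06, adjusted p = 0.148). Ighv1-59 (4.08, adjusted p = 0.177) and Igkv4-74 (2.16 ± 0.86, adjusted p = 0.192) followed. The groups did not overlap for 7 segments, all higher in Inulin_PFOS, fewer than the 12.2% of all genes. Igha averaged 999.7 ± 318 CPM in Inulin_PFOS and 220 ± 165 CPM in Inulin, without overlap, and was not called by edgeR (2.18 ± 0.63, adjusted p = 0.110), but was by DESeq2 (2.18, adjusted p = 0.0142). Of the 12 constant region genes tested (with Jchain), 6 were positive (median -0.17) and edgeR called none. All 13 follicular B cell markers were negative (median -2.08). All 6 smooth muscle (median 1.41) and all 6 fibroblast markers (median 0.95) were positive. None of these markers was called by edgeR, and their part was not tested.

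In Pectin_PFOS against Pectin 1 segment was higher and 4 were lower, where 11.4% of all genes were called higher and 9.43% lower. The share of segments called was thus under the share of genes at large, and 81 of 110 had a negative log2 fold change (median -0.89, all genes -0.06). Igkv1-135 had 3, 14, 11 and 16 counts in Pectin_PFOS, against 48, 68, 28 and 143 in Pectin, without overlap (-2.46 ± 0.77, adjusted p = 0.0315). Ighv10-3 had 0, 3, 6 and 1 counts in Pectin_PFOS, against 3, 12, 84 and 44 in Pectin (-3.61 ± 1.04, adjusted p = 0.0213). Ighv1-59 had 2, 4, 9 and 1 in Pectin_PFOS, against 56, 7, 8 and 168 in Pectin (-3.58 ± 1.09, adjusted p = 0.0274), and Ighv1-72 averaged 1.11 ± 0.749 CPM in Pectin_PFOS and 5.43 ± 3.85 CPM in Pectin (adjusted p = 0.0419). The higher segment was Ighv5-9-1 (adjusted p = 0.0389), with 85 counts in Pectin_PFOS 4 and at most 3 in each of the other 7 libraries. None of these 5 held in each fit that left out 1 library. The calls were 1 higher and 0 lower without Pectin_PFOS 1, 0 and 1 without Pectin 4 or Pectin_PFOS 4, 0 and 2 without Pectin 1, 3 and 5 without Pectin 3, and 1 and 8 without Inulin 1. These counts too are given without the calls over all genes and are no result about the segments in particular. The stable segments of the diet comparisons were not called, Ighv7-1 at 5.45 ± 1.82 CPM in Pectin_PFOS and 12.4 ± 3.85 in Pectin among them. Jchain was lower (187 ± 115 CPM in Pectin_PFOS, 987 ± 386 in Pectin, adjusted p = 0.0268), and so were Fkbp11 of the plasma cell list and Mybl1 of the germinal centre list, while Sdc1, a plasma cell marker that epithelium also expresses, was higher. Igha (-1.08, adjusted p = 0.143) and Igkc (-1.02, adjusted p = 0.175) were not called. In the same comparison 3 of 8 enterocyte markers were higher and 4 of 6 fibroblast markers lower, at 111 to 209 CPM summed in Pectin_PFOS and 397 to 536 CPM in Pectin. Their part was not tested.

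Inulin against Control gave no call in edgeR among the segments and none among all genes (0%), with 11 segments at an unadjusted p under 0.05 (10%, against 20.7% of all genes). DESeq2 called 2 segments and limma 0, and their calls over all genes are not set beside these. Ighv7-1 had 2, 75 and 18 counts in Inulin, against 1, 0, 0 and 1 in Control, without overlap and with a ratio of 62.6 (counting interval 16.9 to 524), and it missed the threshold (log2 fold change 5.79 ± 0.94, adjusted p = 0.0652). Ighv1-5 (2.30, adjusted p = 0.108) and Igkv8-16 (3.06, adjusted p = 0.136) followed. The sign was positive for 95 segments and negative for 15 (median 1.12, all genes -0.02), and Inulin 1, with 360 variable segment counts in all, was the lowest of the 22 libraries.

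The 2 interactions asked whether the PFOS effect on a fermentable fibre differed from that on cellulose. No segment and no gene at all was called in either by edgeR (0%). For inulin 12 segments (10.9%) had an unadjusted p under 0.05, against 19.7% of all genes, the smallest adjusted p was 0.127 (Igkv4-59, log2 difference 3.88), and DESeq2 called 3 as higher, Igkv4-59, Ighv1-72 and Igkv2-112, with adjusted p-values of 0.0353 to 0.0417, where it called 331 genes higher and 323 lower. For pectin 7 (6.36%) had an unadjusted p under 0.05, against 12.4% of all genes, the smallest adjusted p was 0.288 (Igkv4-59, log2 difference 3.55), and DESeq2 called 0, where it called 116 genes higher and 3 lower.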

How the data were processed

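RNA sequencing of intestinal tissue from 22 libraries in 6 groups was analysed. The authors deposited an expected count (an estimated count) per gene and library and a TPM value, per the file headers. HISAT, Bowtie2 and GRCm39 appear in the submitters' processing notes without version or role. The counting program, its use of strand and its treatment of mutated or junction-spanning reads are not given in these sources. CPM is a count per 1000000 of the library total, or of the TMM-scaled library in the tests and the marker sums. All 347 variable segment rows have the start and end of GENCODE M21 on GRCm38, so coordinates and sequences are on GRCm38. Between 9.97% and 11.3% of the deposited values above 0 were not whole, and counts were rounded for testing.

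Differential expression was fitted to the whole table with edgeR 4.0.16 (R 4.3.3): TMM scaling, the default expression filter (15763 genes tested), 1 mean per group over the 22 libraries, robust quasi-likelihood F test, common dispersion 0.102, two-sided p adjusted by Benjamini-Hochberg within each of 9 comparisons (7 pairs, 2 interactions), called at an adjusted p under 0.05. Tested on simulated data for Pectin against Control (15763 genes), the procedure recovered 31.7%, 85.5% and 94.1% of genes changed 2-, 4- and 8-fold, and 3.38% of its calls were false. The simulated counts used the dispersions fitted by the same model, and the changed genes were drawn at random. These rates need not hold for the segments, many of which have few counts or are dominated by a single library. Alternatives were other scalings, no filter, a replicate block, the groups compared alone, limma 3.58.1 on log2(TPM + 1) or log2(TPM + 0.1), DESeq2 1.42.0, and each library left out. Where a group held 1 to 3 counts, ratios were taken per library total with an exact 95% counting interval. Libraries of 1 group were compared pairwise; the closest pair, Pectin_PFOS 3 and 4, had a chi-square of 29.5 per degree of freedom, so none was a duplicate.

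The members, gene lists and tests were chosen with earlier results of these data known. Segments named are those that led a library, the 10 with the highest mean share per chain and every Iglv, and per comparison up to 10 called by p (otherwise the 3 smallest p), with constant regions and up to 4 genes per marker list.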

Additional observations from a re-analysis of the deposited data

Results flagged for a closer look

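In 76 sets of 4 libraries, the distance of the highest or lowest library from the nearest other one was set against Dixon's 95% critical value. Chance passes that value in about 1 in 20 independent sets of normally distributed values. It was passed in 23. The sets share libraries and counts, and some rest on few counts, so that rate cannot be applied to them and the flags are descriptions. Igkv2-112, Ighv5-16 and similar entries below are CPM after TMM scaling; summed levels are CPM of the library total.

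Pectin 4 stood apart in total level, with 885 CPM of variable segments (nearest library 329), 279 for Ighv (nearest 83.0) and 561 for Igkv (nearest 203). It held 75.2 CPM of Ighv5-16 (nearest 1.33) and 156 CPM of Igkv10-96 (nearest 14.4). In Pectin 1, Ighv1-5 was at 7.44 CPM (nearest 4.97).

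In Pectin_PFOS, Igkv1-110 was at 82.6 CPM in library 4 (nearest 18.0). Library 1 was low for Igkv2-112, at 2.24 CPM (nearest 11.5), and for Igkv1-117, at 0.659 CPM (nearest 4.00).

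PFOS 4 was high in total, with 104 CPM (nearest 44.4), 24.6 for Ighv (nearest 11.9) and 65.1 for Igkv (nearest 25.5). Its leading Ighv segment held 18.4% (nearest 10.9%), and it held 15.7 CPM of Igkv1-117 (nearest 1.98) and 12.1 CPM of Igkv2-137 (nearest 0.785). Ighv1-5 at 0.144 CPM (nearest 0.0482) and Igkv2-112 at 0.0958 CPM (nearest 0.0482) rest on at most 3 counts. PFOS 2 was low for Ighv1-72, at 0.145 CPM (nearest 0.502), and PFOS 1 alone held Ighv5-16, at 0.646 CPM.

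Control 2 was dominated by single segments, with leading shares of 37.3% for Ighv (nearest 10.6%) and 48.5% for Igkv (nearest 13.7%), and Igkv2-137 at 15.3 CPM (nearest 2.88). Control 1 held 2.93 CPM of Igkv2-112 (nearest 0.499). No interaction was called for any segment by edgeR, and DESeq2 called 3 for inulin.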

How the results depend on the processing

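No called segment or constant region changed direction under any setting run. Of 42 calls of segments, 13 were kept with each library left out and 11 also under every other setting: Ighv7-1 and Ighv1-5 in Pectin against Control, Inulin_PFOS against PFOS and Pectin_PFOS against PFOS, Igkv2-112 in the last 2 of these, Igkv4-74 in Inulin_PFOS against PFOS, and Igkv1-110 and Ighv1-26 in Pectin_PFOS against PFOS. Igkv4-74, Igkv1-110 and Ighv1-26 share much sequence with other rows, so their counts stay uncertain under every setting. Counts of called segments depended on the settings, and the cause was not tested. The calls over all genes under each setting are not set beside them. DESeq2 also called more genes at large than edgeR in the inulin interaction, as given above. The counts below, and those given above for such fits, are therefore no result about the segments in particular. In Pectin against Control (10) they were 5 with library totals, 4 without the filter, 3 with the groups compared alone, 5, 5 and 3 with limma (pseudocount 1, 0.1, no filter), 34 with DESeq2 and 3 to 16 with 1 library left out. In Pectin_PFOS against PFOS (19) they were 12 with library totals, 8 without the filter, 7, 8 and 5 with limma, 36 with DESeq2 and 6 to 25 with 1 library left out. In Inulin_PFOS against PFOS (8) they were 17 with the groups alone, 21 with DESeq2 and 4 to 12 with 1 library left out. In Pectin_PFOS against Pectin (5) they were 1 without the filter, 9 with the groups alone, 0 with each limma fit, 11 with DESeq2 and 1 to 9 with 1 library left out. DESeq2 called 2 in Inulin against Control, where leaving out 1 library gave 0 to 2, 3 in the inulin interaction, and Igha in Inulin_PFOS against Inulin. Ighv7-1 in Inulin against Control passed the threshold without Control 1, PFOS 1 or 2, Inulin 1 or 3 or Pectin_PFOS 1, with adjusted p-values down to 0.000537. Library totals moved the median of all genes by over 0.1 in 7 comparisons relative to TMM, most in Pectin_PFOS against PFOS, to -0.41 against -0.03, with the median of the segments at 1.91 there.

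With the replicate number as a block, the calls were 8 in Pectin against Control, 5 lower and 0 higher in Pectin_PFOS against Pectin, 9 in Inulin_PFOS against PFOS, 19 in Pectin_PFOS against PFOS and 0 in the other comparisons. Deviations of libraries with the same number correlated between -0.261 and 0.304, and no comparison had every pair over 0.1, so the number was not taken as a pairing.

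In TPM, the segments summed to group means of 1772 in Pectin_PFOS, 2842 in Pectin, 1486 in Inulin_PFOS, 911 in Inulin, 437 in PFOS and 525 in Control (2212 in Pectin_PFOS without its library 1). Over all variable segment rows, effective Ighv numbers were 31.3 in Pectin_PFOS, 32.7 in Inulin_PFOS, 42.0 in Inulin and 30.3 in PFOS. The inverse Simpson number gave 17.8, 13.2, 16.7 and 18.8 for Ighv in Pectin_PFOS, Pectin, Inulin_PFOS and PFOS, and 14.6, 13.7, 20.3 and 13.7 for Igkv in Pectin, Inulin_PFOS, Inulin and PFOS.

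With 1 library left out, group means of variable segment CPM ran over 161 to 261 in Pectin_PFOS, 288 to 501 in Pectin, 167 to 240 in Inulin_PFOS, 56.8 to 166 in Inulin, 43.1 to 64.2 in PFOS and 63.0 to 81.8 in Control. Effective Ighv numbers ran over 24.7 to 28.0, 19.6 to 23.0, 25.5 to 27.3, 25.3 to 34.4, 24.9 to 26.1 and 21.0 to 30.2 in the same order of groups, and effective Igkv numbers over 18.0 to 24.2, 22.2 to 27.1, 23.9 to 26.5, 28.3 to 33.7, 21.7 to 24.9 and 22.8 to 33.6. Leading Ighv shares ran over 12.2% to 16.2%, 14.9% to 21.6%, 15.0% to 19.6%, 8.36% to 13.3%, 10.3% to 13.2% and 8.62% to 18.5%, and leading Igkv shares over 15.9% to 29.4%, 16.2% to 23.4%, 17.8% to 22.8%, 13.1% to 14.7%, 18.0% to 22% and 11.7% to 25.0%.

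Depth limits shares in the poorest libraries, where Control 4 and Inulin 1 held 79 and 80 heavy segment counts and a segment at 0 can take up to 3.80% and 3.75% of them (3 counts of the total).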

Other observations

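Usage along the kappa locus varied between libraries. The share of kappa segment counts from rows nearer to Igkc than the median annotated kappa row was lowest in Pectin_PFOS 4 (20.9%), where Igkv1-110 led, and highest in PFOS 2 (53.9%). For heavy segments, the share from rows nearer to Ighm than the median annotated heavy row was highest in Pectin_PFOS 1 (66.7%) and lowest in Control 3 (39.5%). No test was made of these shares.

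Of the rows outside the rule, Ighv11-2, a heavy segment known from B-1 cell antibodies to phosphatidylcholine, had 0 to 4 counts in each library. It was chosen after its values were seen.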
